A study of Homo sapiens with 15 samples.

Results

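CYP1B1 and 6 further genes of the aryl hydrocarbon receptor pathway (AHR, ARNT, AHRR, CYP1A1, TIPARP and NQO1) were followed in MDA-MB-231 cells after knockdown of YAP, of TAZ or of both. The genes were picked by symbol, and all 7 were found among the 18858 genes of the count table. CYP1B1 was chosen from its rise in the co-knockdown of these same libraries, so its values in any comparison with siYAP+TAZ or siControl cells are given as a description with no test. Of the other 6 genes, which were listed as parts of its pathway, each was tested in every comparison.

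MDA-MB-231 is an established human breast cancer cell line of mesenchymal, triple-negative type. Control cells received no siRNA, and siControl cells a pool without a target. The siYAP cells received siRNAs to YAP1, the siTAZ cells siRNAs to WWTR1, which encodes TAZ, and the siYAP+TAZ cells were given both pools. Knockdown lasted 48 h with 30 nM of any pool, so that the co-knockdown cells received the sum of both amounts, and a larger total amount of siRNA cannot be told apart from the co-knockdown here. After the knockdown all cells spent 5 to 6 h on gelatin before the RNA was taken. There were 3 libraries in each group. Those of Control were numbered 16, 21 and 26, those of siControl 17, 22 and 27, those of siYAP 18, 23 and 28, those of siTAZ 19, 24 and 29, and those of siYAP+TAZ 20, 25 and 30. Values are given in this order. The numbers form 3 runs (16 to 20, 21 to 25 and 26 to 30) that each hold 1 library of every group; the RNA came from 3 independent sets of experiments, and whether a run is such a set is not given in the sources used here.

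AHR is a cytosolic transcription factor that is held by HSP90 and co-chaperones until a ligand, such as a polycyclic arene, a dioxin or a tryptophan metabolite, binds it. It then enters the nucleus, pairs with ARNT and activates genes with the core sequence GCGTG. CYP1A1 and CYP1B1, the monooxygenases that oxidize arenes and estrogens, are its best-known targets, together with its feedback inhibitors AHRR and TIPARP and the quinone reductase NQO1, which also answers to NRF2. YAP and TAZ are co-activators that act mainly through TEAD factors.

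The upstream sequences of the target genes show where the AHR core stands. RefSeq start sites of the GRCh38.p14 assembly were matched for 6 of the 7 members (9 start sites, 2 of them for AHRR and 3 for TIPARP), and the upstream sequence of CYP1B1 was not analysed here. GCGTG, searched on both strands, lay within 250 bases before 32.2% of all 35116 start sites and within 2000 bases before 78.5%. The longer form TNGCGTG, each match of which is also a match of GCGTG, lay within these distances before 4.52% and 28.6%. CYP1A1 had 11 matches of GCGTG in 2000 bases, a number that 0.726% of all start sites reached, and 5 of TNGCGTG, which 0.0541% reached. AHRR had 4 and TIPARP 7 matches of GCGTG before the first of their start sites, ARNT had 6, NQO1 3 and AHR 0, beside a median of 2 over all start sites. The 250 bases before the first AHRR start site (chr5:321464-321713, plus strand) and before the CYP1A1 start site (chr15:74725529-74725778, minus strand) are shown as examples of an inhibitor and an enzyme gene, with GCGTG in capitals:
AHRR: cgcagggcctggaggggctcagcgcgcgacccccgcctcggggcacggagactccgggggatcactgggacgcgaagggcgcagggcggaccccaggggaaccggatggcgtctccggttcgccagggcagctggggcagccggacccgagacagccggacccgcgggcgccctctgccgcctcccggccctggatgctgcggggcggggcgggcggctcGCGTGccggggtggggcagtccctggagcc
CYP1A1: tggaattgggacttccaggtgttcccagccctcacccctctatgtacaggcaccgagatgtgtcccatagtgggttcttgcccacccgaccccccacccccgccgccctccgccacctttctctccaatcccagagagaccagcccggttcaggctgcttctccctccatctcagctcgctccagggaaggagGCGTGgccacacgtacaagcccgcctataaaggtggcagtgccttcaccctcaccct
The matches of TNGCGTG before CYP1A1, AHRR and TIPARP are shown with 7 bases on each side and the match in capitals, in the direction of the gene, so that a match on the other strand reads as CACGCNA:
CYP1A1 chr15:74726900-74726920: agctaggCACGCAAatacaac
CYP1A1 chr15:74726576-74726596: tccccccTCGCGTGactgcga
CYP1A1 chr15:74726501-74726521: tccttctCACGCAAcgcctgg
CYP1A1 chr15:74726413-74726433: gccggcgCACGCAAgctagcc
CYP1A1 chr15:74726018-74726038: cgcttctCACGCGAgccggga
AHRR chr5:321675-321695: gggcggcTCGCGTGccggggt
TIPARP chr3:156673053-156673073: gtatgccCACGCTAattgaag
TIPARP chr3:156675981-156676001: cgcgcgcTTGCGTGtgtacgc
The TEAD core GGAATG, searched on both strands of the same 2000 bases, had 3 matches each before AHR, CYP1A1 and the first start site of TIPARP and none before ARNT, AHRR and NQO1. It was present before 66.3% of all start sites, and 11.1% had at least 3 matches. These are matches of letters and show no binding.

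The libraries held between 18696737 and 30107312 counted reads. YAP1 lay between 4038 and 4996 normalised read counts (counts scaled to a common depth by TMM) in the Control, siControl and siTAZ libraries, at 1013, 2764 and 761 in siYAP and at 2240, 2202 and 1796 in siYAP+TAZ. WWTR1 lay at 828, 254 and 521 in siTAZ and at 1133, 1123 and 1284 in siYAP+TAZ, against 1423 to 2001 in the other groups. Each target was thus lower in every library that received its pool, but WWTR1 in siYAP+TAZ lay above its level in siTAZ. Against siControl edgeR gave an adjusted p of 0.0187 for WWTR1 in siTAZ, while YAP1 in siYAP (0.0992), YAP1 in siYAP+TAZ (0.0723) and WWTR1 in siYAP+TAZ (0.199) did not pass. Of the line markers, VIM, CD44, AXL and CAV1 were high in all groups (group means from 13160 to 38540 normalised counts), and ESR1 and CDH1 had no row in the table. In siYAP+TAZ against siControl 2 of the 4 high markers were called lower by edgeR, beside 18.4% of all genes called in either direction. The group mean was 36760 in siControl and 25820 in siYAP+TAZ for AXL, and 16820 and 13160 for CAV1. EPCAM (group means from 283 to 348) and GATA3 (459 to 545), listed as low or absent in this line, were detected. Of 4 markers of other cell types, PTPRC was listed, with at most 5.1 normalised counts.

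Counted per length, the members differed in level by more than 2 orders of magnitude. In siControl cells NQO1 had 47.9 ± 9.13 (SD, n = 3) RPKM (reads per kilobase of exon and per total reads, computed here from the counts), TIPARP 16.5 ± 1.32, CYP1B1 14.8 ± 2.19, AHR 5.33 ± 1.08, ARNT 5.00 ± 0.157, CYP1A1 4.18 ± 1.88 and AHRR 0.161 ± 0.0374. The libraries of TIPARP and CYP1B1 overlapped in this order, as did those of AHR, ARNT and CYP1A1, whereas NQO1 stood above and AHRR below all other members. In siYAP+TAZ cells CYP1B1 reached 38.9 ± 15.6 on this scale (26.4 to 56.5), above every value of TIPARP (19.5 to 21.2) and overlapping NQO1 (47.8 to 55.7). Exon lengths were those of GENCODE 44, and the order in siControl was the same with the length of the canonical transcript.

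CYP1B1 (chromosome 2, 38066973 to 38109902, minus strand, GRCh38) was higher in the knockdowns in the order siYAP, siTAZ, siYAP+TAZ. Its normalised read count was 1640, 1561 and 2841 in the Control libraries and 1783, 2156 and 2513 in siControl. It was 1915, 3092 and 3377 in siYAP, 2630, 4719 and 5077 in siTAZ, and 3681, 4729 and 7986 in siYAP+TAZ. Every siYAP+TAZ library lay above every siControl library, as for 18.2% of all genes, and so did every siTAZ library, as for 10.7%. Both use libraries of the comparison that chose the gene. The siYAP libraries overlapped siControl and siTAZ, and siTAZ overlapped siYAP+TAZ. In RNA of whole cultures, more RNA per cell and more cells that express the gene cannot be told apart. Against siControl the log2 fold change was 0.38 (SE 0.370) in siYAP, 0.94 (SE 0.372) in siTAZ and 1.35 (SE 0.374), or 2.55-fold, in siYAP+TAZ. The last value is the one that chose the gene, and over 19 alternative settings it lay between 0.976 and 1.565.

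**Figure D1:**
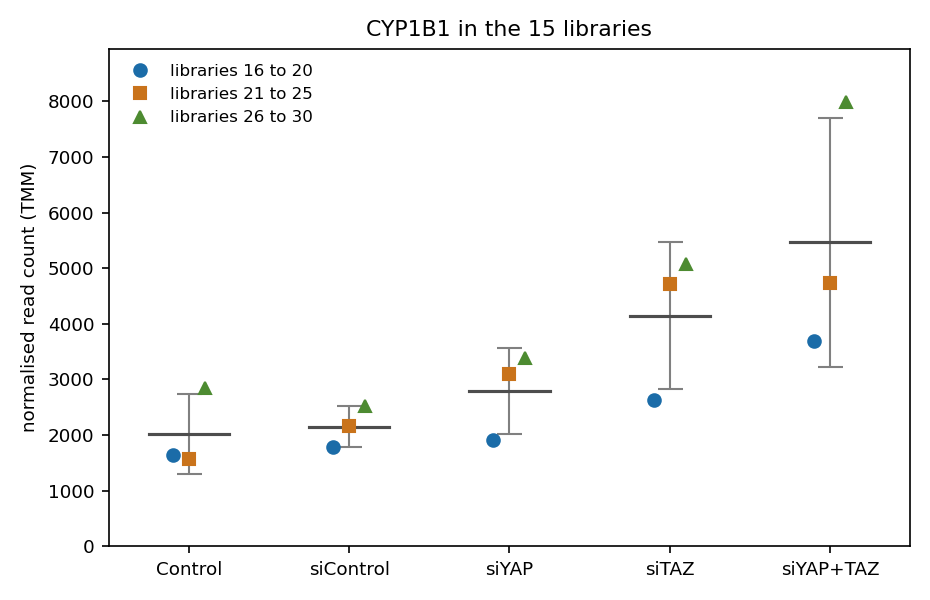
Normalised read count of CYP1B1 (vertical axis, from 0) in each of the 15 libraries by group, with the symbol giving the run of library numbers; horizontal lines are group means and bars 1 SD (n = 3). The siYAP+TAZ libraries reach from 3681 to 7986, and in every group the library of the run 26 to 30 is the highest.

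The comparisons that did not enter the choice of CYP1B1 were those of the single knockdowns with Control and with each other. CYP1B1 was 1.04 higher on the log2 scale in siTAZ than in Control (SE 0.374, 95% interval 0.212 to 1.870), with an adjusted p of 0.163 in edgeR's quasi-likelihood test. In siYAP the difference from Control was 0.47 (SE 0.372, adjusted p 0.681), and siTAZ exceeded siYAP by 0.57 (SE 0.369, adjusted p 0.558). None of these passed the threshold of 0.05 over all genes when the run of library numbers was not in the fit. In that fit 1.46% of all genes passed it in siYAP against Control, 3.40% in siTAZ against Control and 0.642% in siTAZ against siYAP. With the run as a block in edgeR, CYP1B1 passed in siTAZ against Control (1.032, adjusted p 0.00776). In siYAP against Control and in siTAZ against siYAP it passed in no alternative setting (lowest adjusted p 0.191 and 0.115). Control and siControl cells differed by 0.10 (SE 0.373), a difference that turned to between -0.057 and -0.030 when Control library 16, Control library 21, siControl library 27 or the run 21 to 25 was left out.

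Within each run of library numbers CYP1B1 followed the same order, siControl below siYAP, siYAP below siTAZ and siTAZ below siYAP+TAZ. The siYAP library held 1.07, 1.43 and 1.34 times the siControl count of its own run, in the order 16 to 20, 21 to 25 and 26 to 30. The ratio was 1.48, 2.19 and 2.02 in siTAZ and 2.07, 2.19 and 3.18 in siYAP+TAZ. In the run 21 to 25 the siTAZ and siYAP+TAZ libraries were nearly level, with 4719 and 4729. On the log2 scale the interaction (siYAP+TAZ minus siYAP minus siTAZ plus siControl) was 0.03 (SE 0.521), so the pooled value for both pools was close to the sum of the single ones, within an interval of -1.128 to 1.179. It lay between -0.358 and 0.305 over 24 alternatives. The knockdown itself was not equal between these groups. Relative to siControl, WWTR1 was 0.298-fold in siTAZ and 0.653-fold in siYAP+TAZ, and YAP1 0.351-fold in siYAP and 0.481-fold in siYAP+TAZ. The sum therefore describes the pools given and not equal losses of YAP and TAZ.

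CYP1B1-AS1, a long noncoding RNA on the opposite strand, shares 678 exonic bases with CYP1B1, which are 11.3% of the exonic bases of CYP1B1. Its normalised count was 53, 66 and 57 in siControl, 51, 73 and 76 in siYAP, 66, 77 and 90 in siTAZ, and 84, 148 and 150 in siYAP+TAZ, a log2 fold change of 1.13 (SE 0.249) in siYAP+TAZ that is given as a description because of the shared locus. Its counts were between 1.64% and 3.13% of those of CYP1B1 in the same library. Since the labels and methods do not state whether counting used the strand, the reads of the 2 genes in the shared stretch cannot be told apart. RMDN2, which also overlaps CYP1B1 on the opposite strand (96 exonic bases), differed by 0.26 (SE 0.168, adjusted p 0.32) between siYAP+TAZ and siControl. RMDN2-AS1, a long noncoding RNA on the strand of CYP1B1, shares 69 exonic bases with it, which are 1.15% of those of CYP1B1. It had 1 to 6 counts in Control, 2 to 7 in siControl, 1 to 5 in siYAP, 4 to 12 in siTAZ and 9 to 22 in siYAP+TAZ, where siTAZ and siYAP+TAZ overlap. Its log2 fold change in siYAP+TAZ was 1.77 (SE 0.594) against siControl, 1.48 (SE 0.598) against Control and 0.87 (SE 0.552) against siTAZ, given as a description for the same reason as for CYP1B1-AS1.

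In siYAP+TAZ against siControl, 3 of the 6 tested members rose (AHR, AHRR and TIPARP) and none fell, by edgeR's quasi-likelihood test at an adjusted p of at most 0.05. Of all genes 18.4% were called under this rule, and 9.97% of all genes were called higher. AHRR also passed the second threshold of the study, a log2 fold change of 1 or more in either direction, as 3.46% of all genes did. The median log2 fold change of the 6 tested members was 0.39, beside -0.005 over all genes. Every siYAP+TAZ library lay above every siControl library for 4 of the 6 tested members (AHR, ARNT, AHRR and TIPARP), an arrangement found in 18.2% of all genes. With the run of library numbers as a block in the fit, 5 of the 6 tested members passed, ARNT and CYP1A1 besides the 3 named, and so did 5389 of all genes in place of 3464.

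AHR (chromosome 7, 16916359 to 17346152, plus strand), the receptor itself, had 1183, 1077 and 821 normalised counts in siControl and 1520, 1648 and 1309 in siYAP+TAZ. The Control libraries held 1073, 899 and 866. Its siYAP libraries held 1222, 1174 and 1017, and its siTAZ libraries 1227, 1161 and 1066, so both single knockdowns overlapped siControl and lay below every siYAP+TAZ library. The share of all genes with the single knockdowns below siYAP+TAZ was not computed. AHR rose by 0.54 on the log2 scale in siYAP+TAZ (SE 0.124, adjusted p 0.00551), and by 0.66 against Control (SE 0.125, adjusted p 0.00125). The siYAP+TAZ library exceeded the siControl library 1.28, 1.53 and 1.60 times within the runs. Without the run 21 to 25 the difference from siControl was 0.493 with an adjusted p of 0.147, and that from Control 0.543 with an adjusted p of 0.114. In the annotation of GENCODE 44, 29.5% of the exonic bases of AHR also belong to another protein-coding gene model on the same strand (ENSG00000283321), which has no row of its own in the table.

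ARNT (chromosome 1, 150809713 to 150876708, minus strand), the nuclear partner, differed little between the groups. Its libraries had 781, 772 and 767 normalised counts in siControl and 880, 848 and 942 in siYAP+TAZ, which do not overlap. The difference of 0.20 (SE 0.0824) had an adjusted p of 0.0995 in edgeR without a block, and with the run as a block it passed (0.201, adjusted p 0.0441). Against Control, whose libraries held 660, 750 and 813, ARNT rose by 0.27 (SE 0.083, adjusted p 0.0299). This call was lost without Control library 16 (0.189), Control library 21 (0.276), siYAP+TAZ library 20 (0.274) or siYAP+TAZ library 30 (0.225), without the run 16 to 20 (0.206) or 21 to 25 (0.312), and with only the compared groups in the fit (0.279).

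AHRR (chromosome 5, 321714 to 438291, plus strand), the repressor that competes with AHR for ARNT, was the lowest expressed member. Its normalised count was 26, 40 and 44 in siControl and 52, 73 and 129 in siYAP+TAZ, which do not overlap. The siYAP libraries held 48, 50 and 56, the siTAZ libraries 40, 69 and 55, and the Control libraries 51, 38 and 71. AHRR was 2.35-fold higher in siYAP+TAZ than in siControl (log2 fold change 1.24, SE 0.31, adjusted p 0.00912), and 0.69 higher than in Control (SE 0.304), where the adjusted p was 0.124 (0.645 with the run as a block, adjusted p 0.0248). The siYAP+TAZ library exceeded siControl 1.98, 1.84 and 2.94 times within the runs. The call against siControl was lost without siYAP+TAZ library 30 (0.794, adjusted p 0.0782), without siControl library 17 (1.042, adjusted p 0.0537) and without the run 21 to 25 (1.397, adjusted p 0.0868). Against Control AHRR lay between 0.246 and 0.936 with single libraries left out, and it passed without siYAP+TAZ library 20 (0.936, adjusted p 0.0428). The read-through gene model PDCD6-AHRR covers 58.7% of the exonic bases of AHRR on the same strand and has no row of its own in the table.

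TIPARP (chromosome 3, 156673235 to 156706770, plus strand), an ADP-ribosyltransferase that acts as a second feedback inhibitor of AHR, showed a small rise. Its siControl libraries had 1972, 1952 and 1769 normalised counts and its siYAP+TAZ libraries 2228, 2363 and 2193. All other groups lay at or below 2008, so the siYAP+TAZ libraries were the 3 highest of the 15. Above siControl alone they lay as for 18.2% of all genes, and the share for all other groups together was not computed. TIPARP rose by 0.25 on the log2 scale (SE 0.0696, adjusted p 0.0154), and by 0.38 against Control (SE 0.0699, adjusted p 0.000815). The siYAP+TAZ to siControl ratio within the runs was 1.13, 1.21 and 1.24. The call against siControl was lost without siControl library 27 (0.205), siYAP+TAZ library 25 (0.225), the run 16 to 20 (0.299) or the run 21 to 25 (0.239).

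NQO1 (chromosome 16, 69706996 to 69726668, minus strand) is the quinone reductase of the set. It had 2730, 2653 and 2903 normalised counts in Control and 3787, 3695 and 2731 in siControl. In siYAP+TAZ it had 3826, 3772 and 3337, which overlap siControl and lie above every Control library. The share of all genes with siYAP+TAZ so above Control was not computed. NQO1 was 0.10 higher in siYAP+TAZ than in siControl (SE 0.119, adjusted p 0.64). Without siControl library 27 this value was -0.038. Against Control NQO1 rose by 0.40 (SE 0.12, adjusted p 0.0265). This call was lost without Control library 16 (0.392), Control library 21 (0.372), siYAP+TAZ library 20 (0.364) or 25 (0.374), and without the run 16 to 20 (0.365) or 21 to 25 (0.349). An annotated long noncoding RNA on the opposite strand covers 19.4% of its exonic bases.

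**Figure D2:**
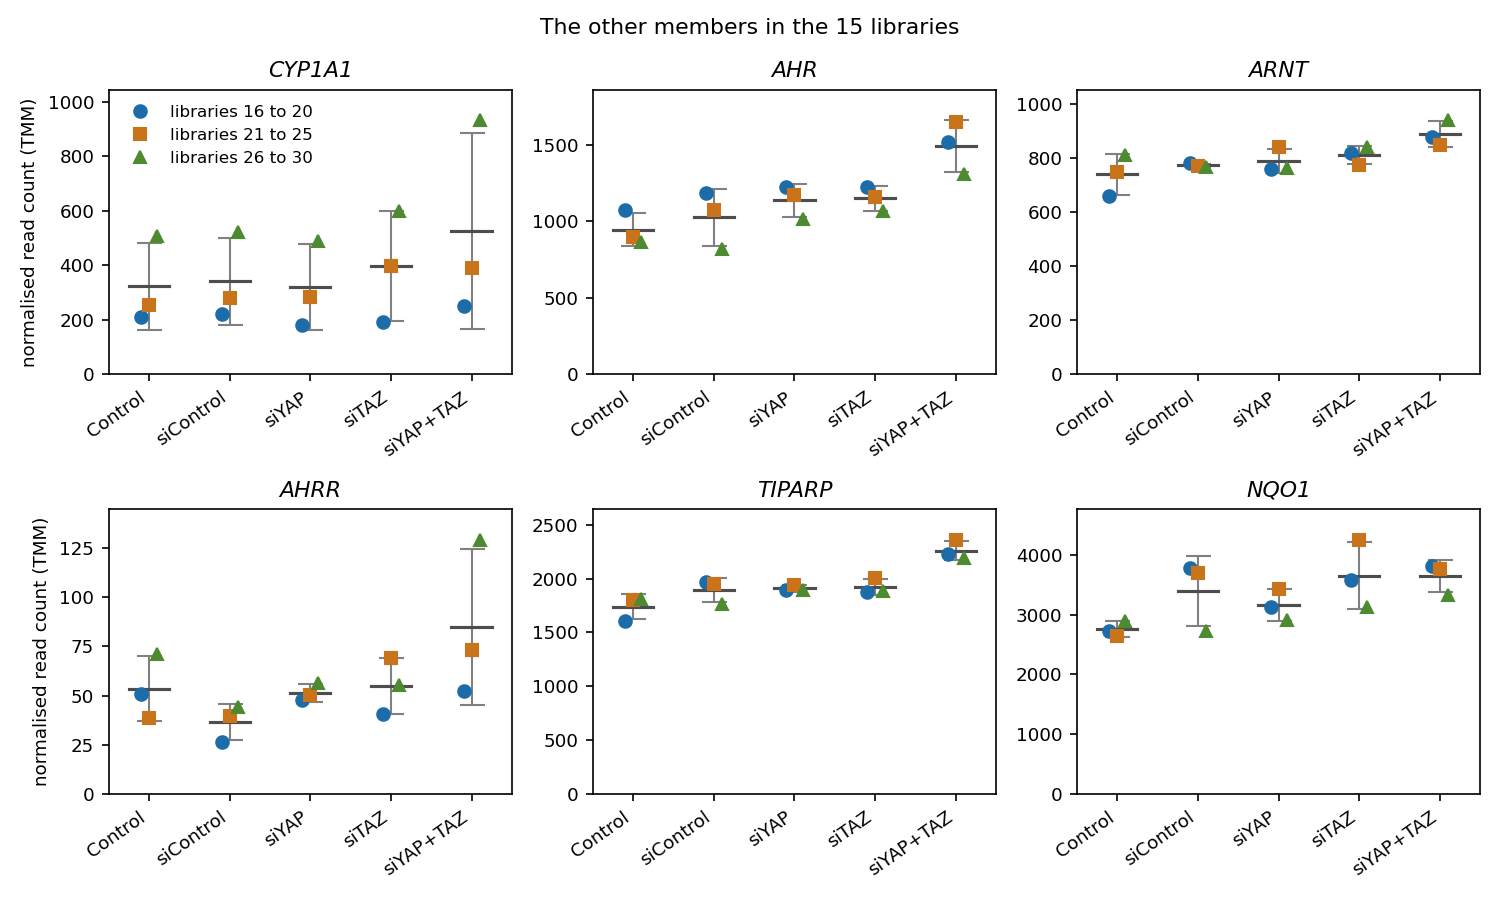
Normalised read counts of the other 6 members (vertical axes, each from 0) in the 15 libraries by group, with the symbol giving the run of library numbers; horizontal lines are group means and bars 1 SD (n = 3). AHR and TIPARP are highest in the siYAP+TAZ libraries, and the CYP1A1 libraries separate by run in every group.

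CYP1A1 (chromosome 15, 74719542 to 74725536, minus strand), the AHR-induced enzyme most used as its readout, did not pass the test in any comparison when the run was not in the fit. Its normalised count was 219, 278 and 521 in siControl and 251, 390 and 933 in siYAP+TAZ. In siYAP it was 179, 285 and 490, in siTAZ 191, 398 and 598, and in Control 211, 253 and 506. All groups overlapped. In every group the library of the run 16 to 20 was the lowest and that of the run 26 to 30 the highest. The difference between siYAP+TAZ and siControl was 0.65 on the log2 scale with an SE of 0.617 (adjusted p 0.541, 95% interval -0.721 to 2.016), and it was -0.064 without siYAP+TAZ library 30. With the run as a block edgeR called CYP1A1 higher in siYAP+TAZ than in siControl (0.55, adjusted p 0.00167), than in Control (0.627, adjusted p 0.00064) and than in siYAP (0.663, adjusted p 0.000775).

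The runs of library numbers separated CYP1A1 more than the groups did. Of its variance on the log2 scale over the 15 libraries, 83.9% lay between runs and 11.5% between groups, and the share between runs was at percentile 99.4 among the 13210 genes with a mean of at least 20 normalised counts, whose median share was 17.6%. Its level in the run 26 to 30 was 2.81 times that in the run 16 to 20. For CYP1B1 26.7% of the variance lay between runs and 66.8% between groups, with a 1.78-fold step from the first to the last run, and for AHRR the shares were 26.8% and 50.7% with a 1.54-fold step. AHR went the other way, with 0.81 times the level in the last run and the lowest library of each of the 5 groups in it. As deviations from the group means over the 15 libraries, CYP1A1 had a Pearson r of 0.953 with CYP1B1, AHRR 0.873 and AHR -0.665. These points share their runs, so the r values are a description and carry no p. Within the runs the siYAP+TAZ to siControl ratio of CYP1A1 was 1.14, 1.40 and 1.79, that of siYAP 0.814, 1.02 and 0.94, and that of siTAZ 0.871, 1.43 and 1.15. What differed between the runs was not tested.

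**Figure D3:**
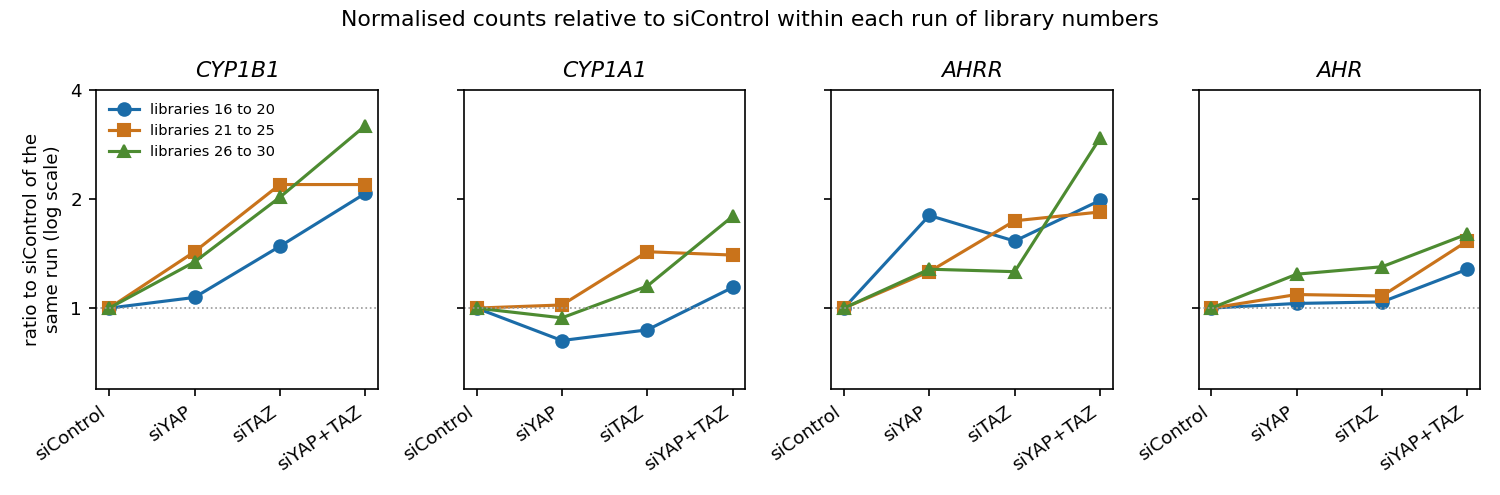
Normalised read counts of CYP1B1, CYP1A1, AHRR and AHR divided by the siControl library of the same run (vertical axis, log scale), with 1 line for each run of library numbers. The siYAP+TAZ ratio of CYP1B1 is 2.07, 2.19 and 3.18, that of CYP1A1 1.14, 1.40 and 1.79.

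In the single knockdowns none of the 6 tested members passed the threshold against siControl in edgeR's quasi-likelihood test, and none had an unadjusted p below 0.05; DESeq2 and limma-voom also called 0. Of all genes, 0.933% were called in siYAP and 2.03% in siTAZ. The first of these counts, 176 genes, was 27, 64 and 68 without siControl library 17, 22 or 27, and 58 and 41 without siYAP library 18 or 28. The second, 383 genes, was 118 and 124 without siControl library 17 or 22, and 901, 68 and 242 without siTAZ library 19, 24 or 29. With the run as a block 0 of the 6 passed in siYAP, beside 1151 of all genes in place of 176. AHRR had the largest values, 0.49 (SE 0.318) in siYAP and 0.58 (SE 0.324) in siTAZ, and AHR had 0.15 (SE 0.124) and 0.16 (SE 0.124). With single libraries left out AHR lay between 0.01 and 0.273 in siYAP and between 0.028 and 0.276 in siTAZ. TIPARP was near 0 in both, with 0.01 (SE 0.0695) and 0.02 (SE 0.0697). For none of the 6 tested members did every siTAZ library lie above every siControl library, as for 10.7% of all genes. Every siYAP library lay above every siControl library for AHRR, as for 9.65% of all genes. For TIPARP and NQO1 every siTAZ library lay above every Control library, as for 10.5% of all genes, and so did every siYAP library, as for 9.00%. Against Control, AHR and NQO1 had an unadjusted p below 0.05 in siTAZ (as had 19.3% of all genes) but adjusted p-values of 0.227 and 0.0714 in edgeR, and DESeq2 called NQO1 (adjusted p 0.0371). In siYAP against Control none of the 6 passed without a block, and with it AHR did (0.265, adjusted p 0.025), beside 1345 of all genes in place of 276.

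**Figure D4:**
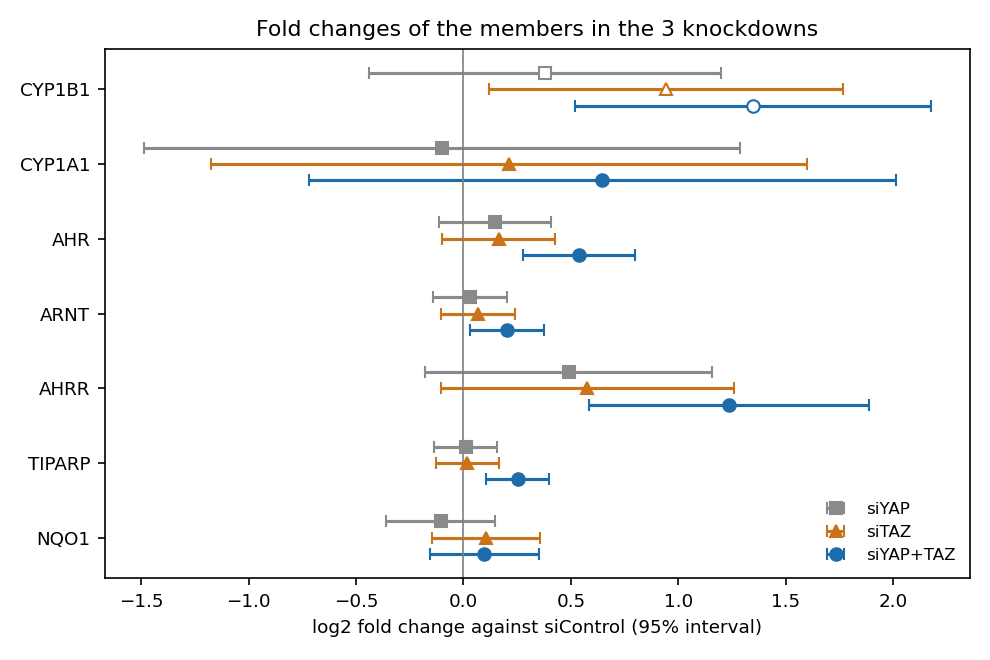
Log2 fold change against siControl (horizontal axis, with 95% intervals) of each member in siYAP, siTAZ and siYAP+TAZ; open symbols mark CYP1B1, for which no test is given. The intervals of AHR, AHRR and TIPARP in siYAP+TAZ lie above 0, and that of CYP1A1 in siYAP+TAZ spans from -0.721 to 2.016.

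Against Control, 4 of the 6 tested members rose in siYAP+TAZ (AHR, ARNT, TIPARP and NQO1), where 19.4% of all genes were called. With the run as a block all 6 passed, beside 5547 of all genes in place of 3663. Only 2 passed without Control library 16, Control library 21 or the run 16 to 20, and 1 without the run 21 to 25. The comparisons with siControl and with Control share the siYAP+TAZ libraries. Set directly against siYAP, only TIPARP passed (0.24, SE 0.0695, adjusted p 0.0495), beside 5.13% of all genes, and the call was lost when any 1 library of either group, the run 16 to 20 or the run 21 to 25 was left out. It was also lost with library size as the only scaling (0.0576), without robust estimation (0.0505) and with only the compared groups in the fit (0.076). With the run as a block 4 of the 6 passed there, adding AHR (0.392, adjusted p 0.000304), AHRR (0.687, adjusted p 0.0249) and CYP1A1, beside 2758 of all genes in place of 968. Against siTAZ none of the 6 passed, beside 5.44% of all genes, and 3 had an unadjusted p below 0.05, beside 19.3% of all genes. TIPARP was 0.23 above siTAZ (SE 0.0697, adjusted p 0.0571), a value that passed in DESeq2 (adjusted p 0.0148) and in edgeR with DESeq2 size factors (0.0461), library size as the only scaling (0.0362), a minimum of 10 reads in 3 libraries (0.0368), filterByExpr (0.0346) or the run as a block (0.00913). AHR was 0.39 (SE 0.123, adjusted p 0.0795) above siYAP and 0.37 (SE 0.124, adjusted p 0.093) above siTAZ, and both passed without the run 26 to 30 (0.403, adjusted p 0.00773, and 0.411, adjusted p 0.00723). In siControl against Control edgeR called 0 members and 0% of all genes, with 398 genes at an unadjusted p below 0.05, and DESeq2 and limma-voom called 0 genes. NQO1 had the lowest unadjusted p there (0.30, SE 0.12, p from edgeR 0.0222). In the interaction edgeR called 2 genes (0.0106%), no member among them, with 1104 genes at an unadjusted p below 0.05. TIPARP had 0.23 (SE 0.0984, adjusted p 0.81) and AHR 0.23 (SE 0.175, adjusted p 0.934).

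Of 22 listed partners of the receptor (the cytosolic AHR complex, proteins of the bHLH-PAS family, and co-activators), 19 were in the table. In siYAP+TAZ against siControl 7 of them rose and 2 fell, which is 47.4% of the list beside 18.4% of all genes, with a median log2 fold change of 0.23 beside -0.005. NPAS2, a circadian bHLH-PAS factor, rose by 0.65 (SE 0.117, adjusted p 0.000867) and its relative ARNTL by 0.60 (SE 0.133, adjusted p 0.00353). HIF1A, the hypoxia factor that also pairs with ARNT, rose by 0.80 (SE 0.151, adjusted p 0.00193). Its normalised count was between 4740 and 5666 in siControl and between 7527 and 10460 in siYAP+TAZ. HSP90AA1, a chaperone that holds AHR in the cytosol, fell by 0.36 (SE 0.0763, adjusted p 0.00256). The second gene that fell was its paralog HSP90AB1, with -0.25 (SE 0.0648), named outside the rule after its value was seen. In siTAZ, HIF1A (0.68) and NPAS2 (0.49) rose and HSP90AA1 (-0.30) fell, which is 3 of 19 beside 2.03% of all genes, and in siYAP none of the 19 was called, beside 0.933%.

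Of 16 further genes listed as AHR targets 11 were in the table, and in siYAP+TAZ against siControl 3 rose and 1 fell (36.4%, beside 18.4% of all genes), with a median of 0.55 beside -0.005 over all genes. EREG, the growth factor epiregulin, rose by 1.02 (SE 0.267, adjusted p 0.0178), from 204 to 398 normalised counts in siControl to 627 to 720 in siYAP+TAZ. ALDH1A3, an aldehyde dehydrogenase, rose by 1.19 (SE 0.331, adjusted p 0.019), and CYP2S1, another cytochrome P450, by 0.55 (SE 0.177, adjusted p 0.0374). SLC7A5, an amino acid transporter that carries tryptophan and kynurenine, fell by 0.50 (SE 0.0805, adjusted p 0.000301), and it was the 1 gene of this list called in siYAP (-0.41, SE 0.0804), beside 0.933% of all genes. None was called in siTAZ, beside 2.03%.

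Of 11 listed enzymes of kynurenine and indole metabolism, not all of which form AHR ligands, 7 were in the table. In siYAP+TAZ against siControl 1 of them rose and 1 fell. These are 28.6% of the list, beside 18.4% of all genes, and rest on 2 genes. IL4I1, a secreted amino acid oxidase, rose by 1.96 (SE 0.552, adjusted p 0.0191) at a low level, from 2.77 to 16.1 normalised counts in siControl to 17.8 to 44 in siYAP+TAZ. AADAT, a kynurenine aminotransferase, fell by 0.37 (SE 0.12, adjusted p 0.0375). No gene of this list was called in siYAP or siTAZ, beside 0.933% and 2.03% of all genes, and IDO1, IDO2 and TDO2, which open the kynurenine pathway, had no row in the table.

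All 20 NRF2 targets were in the table, of which 3 rose and 1 fell, with a median of 0.06. The share called was 20% beside 18.4% of all genes, near the background. Among those that rose, AKR1B10, a carbonyl reductase with 4.29 to 8.51 normalised counts in siControl, rose by 1.73 (SE 0.467, adjusted p 0.0135), and the heme oxygenase HMOX1 by 0.54 (SE 0.173, adjusted p 0.0407). TXNRD1, a thioredoxin reductase, fell by 0.29 (SE 0.0897, adjusted p 0.0289). Of 15 measured P450 partners and enzymes of estrogen or arene metabolism, 4 rose and none fell (26.7%, beside 18.4% of all genes called and 9.97% called higher). EPHX1, the microsomal epoxide hydrolase that acts after CYP1 enzymes on arene oxides, rose by 0.58 (SE 0.0813, adjusted p 7.2e-05), from 1517 to 1683 normalised counts in siControl to 2286 to 2598, and by 0.33 in siTAZ (SE 0.0813, adjusted p 0.0427), the 1 gene of this list called there, beside 2.03% of all genes. NQO2, CYB5R3 and GSTM3 rose by 0.23, 0.35 and 0.27 on the log2 scale. Of the 14 measured genes of a list of other P450 enzymes, 2 rose (14.3%, beside 18.4% of all genes called and 9.97% called higher), CYP39A1 by 1.13 (SE 0.318, adjusted p 0.0177) and CYP27A1 by 0.62 (SE 0.201, adjusted p 0.0395), and none fell.

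For scale, 9 of 10 listed YAP and TAZ targets fell in siYAP+TAZ against siControl, beside 18.4% of all genes called in either direction, with a median of -0.93. CCN1, a matricellular protein, fell by 1.17 (SE 0.125) and AMOTL2 by 0.84 (SE 0.0623). In siYAP AMOTL2 and LATS2 fell, beside 0.933% of all genes called, and in siTAZ CCN1 and F3 did, beside 2.03%.

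**Figure D5:**
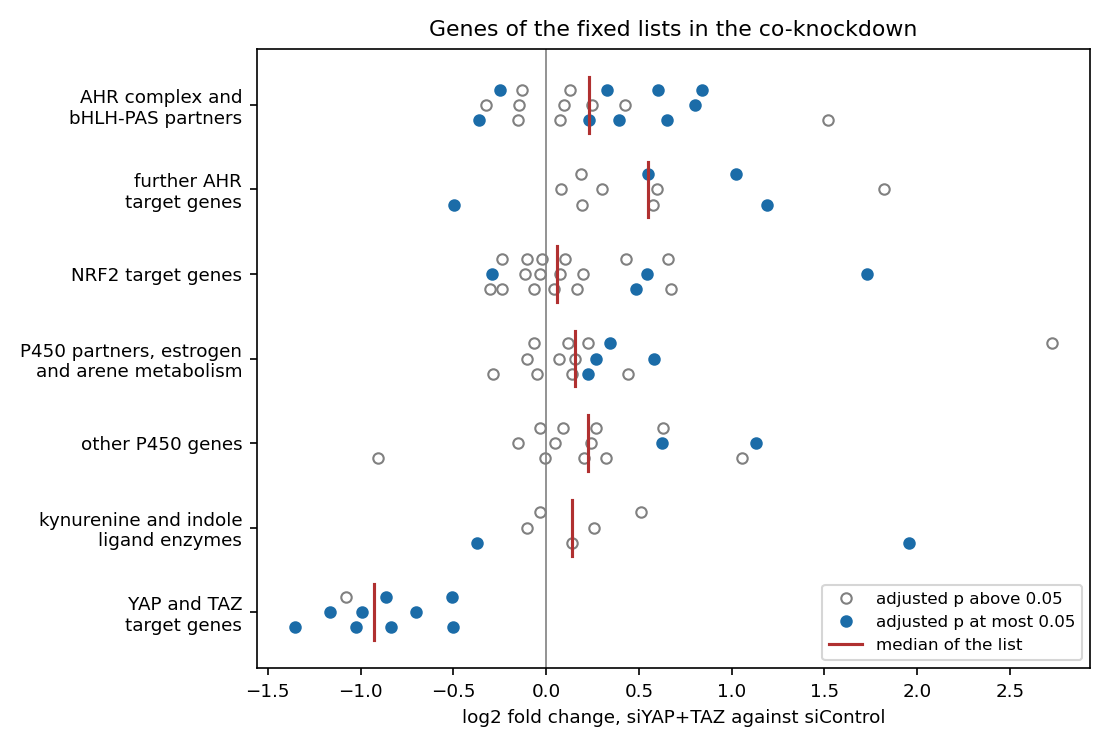
Log2 fold change in siYAP+TAZ against siControl (horizontal axis) of each measured gene of the 7 lists, filled where the adjusted p is at most 0.05; red lines are list medians. The receptor partners have 7 filled points above 0 and 2 below, and the YAP and TAZ targets 9 below 0.

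Over the 15 libraries, the 10 genes whose log2 CPM was most like that of CYP1B1 included RASA1, MX1, MAP4K4, CAST, SERPINA1, ITM2B, TOX2, MEGF9 and CLDN2, with Pearson r from 0.981 (RASA1) to 0.965 (CLDN2) among genes with a mean of at least 20 normalised counts. RASA1 is a GTPase-activating protein of RAS, MX1 an interferon-induced GTPase, CAST the calpain inhibitor calpastatin and CLDN2 a tight junction protein. The most opposite were PPRC1, FGF5, INTS11, TRMT1 and ZNF207, with r from -0.964 to -0.957. The libraries share groups and runs, so these values are a description with no p. With Spearman's rho 6 of the 10 genes were shared, and with deviations from the group means 1. Of the AHR genes CYP1B1-AS1 had an r of 0.921 with CYP1B1, AHRR 0.813, ARNT 0.773, CYP1A1 0.762, TIPARP 0.656, AHR 0.43 and NQO1 0.389.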

How the data were processed

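Poly(A)-selected RNA of the 15 libraries was sequenced by the authors, who processed the reads with the UTAP pipeline, trimmed them with cutadapt, aligned them to GRCh38 (GENCODE 34) with STAR 2.4.2a and deposited raw read counts per gene. Strand use in counting is not stated. The 30 deposited normalized and rlog columns and the columns of the authors' own comparisons (fold changes and p-values) were not used. The methods' minimum of 5 reads in at least 1 library removed none of the 18858 genes. TMM scaling and the robust quasi-likelihood test of edgeR 4.0.16 (R 4.3.3) were applied in 1 fit of all 15 libraries with a coefficient for each group and with Benjamini-Hochberg adjustment over all genes. Genes with an adjusted p of at most 0.05 were called (rose or fell), and the study's second threshold was a log2 fold change of 1 or more in either direction. Log2 CPM used a prior count of 2. Members, gene lists and tests were chosen with earlier results of these data known. From each list the text names at most 4 genes with the smallest adjusted p in siYAP+TAZ against siControl among those called, and any gene called in a single knockdown, besides the siRNA targets, genes that overlap a member, and the 10 genes with the highest and 5 with the lowest r to CYP1B1. Of the genes so chosen, 2 are not reported here. Tests were first tested on simulated data. Alternatives were DESeq2 1.42.0 with the methods' settings, limma-voom (limma 3.58.1), other scalings and filters, no robust estimation, fewer groups in the fit, Control as reference, the run as a block, and left-out libraries. The labels do not say whether the runs pair the libraries. As deviations from the group means, all 3 same-run pairs of libraries had an r over 0.1 in each comparison without siTAZ (0.186 to 0.616), and 2 of 3 in each with it (lowest -0.05). Of 60 pairs from different runs 16 were also over 0.1 (up to 0.386). The median r was 0.39 over same-run pairs and -0.315 over pairs from different runs, and 10 of 15 libraries were most like one of their own run. Within the run 26 to 30 every pair had an r of at least 0.494. No pair of its libraries with those of another run exceeded 0.087. The run 26 to 30 was thus separate, whereas the runs 16 to 20 and 21 to 25 are not clearly separate from each other. By the rule on same-run pairs, blocked values stand beside the results they change in the comparisons without siTAZ. The blocked value of CYP1B1 in siTAZ against Control is given besides. Leaving out a run was added after the data were seen. Gene coordinates came from GENCODE 44 and upstream sequences from RefSeq (GRCh38.p14), read in the GRCh38 genome beyond 250 bases.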

Additional observations from a re-analysis of the deposited data

How the results depend on the processing

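Of 1885 recomputed values, 1615 kept their direction and side of the threshold (counts within 1.5 times), 34 lost and 27 gained a call, and 145 moved. A further 64 tested log2 fold changes, of 27 results, changed sign, and 0 of these were called in either fit. The log2 fold change of CYP1B1 in siYAP+TAZ against siControl kept its sign in all 19 settings. In the same comparison, without the run 21 to 25 AHR was 0.493, AHRR 1.397 and TIPARP 0.239, none of them called, so that 0 of the 6 tested members and 974 genes passed the adjusted p alone and 291 both thresholds, in place of 3, 3464 and 652. Without the run 16 to 20 TIPARP was 0.299 and not called, with 1451 and 407 genes. Without the run 26 to 30 calls were gained: AHR against siYAP (0.403) and siTAZ (0.411), NQO1 in siTAZ against Control (0.536, adjusted p 0.000893), and 883 genes in siTAZ against siControl in place of 383. The cause of these changes was not tested. With single libraries left out, AHRR lay between 0.794 and 1.479 and TIPARP between 0.205 and 0.287, with the losses named above. With Control as reference AHRR was 0.692 and not called, and ARNT (0.266) and NQO1 (0.400) were called. Scaling by library size alone called ARNT (0.246); the cause was not tested. The run of library numbers as a replicate block called ARNT (0.201, adjusted p 0.0441) and CYP1A1 (0.55, adjusted p 0.00167), 5 of the 6 tested members and 5389 genes. In each comparison with siTAZ, 2 of 3 same-run pairs of libraries had an r over 0.1. Of these comparisons, CYP1B1 in siTAZ against Control passed under the block (1.032, adjusted p 0.00776). AHR (0.284) and NQO1 (0.393) also passed there, as did AHR (0.374) and TIPARP (0.235) in siYAP+TAZ against siTAZ. Over all alternatives the adjusted p lay between 9.95e-07 and 0.147 for AHR, 0.000126 and 0.124 for AHRR, 0.0299 and 0.282 for ARNT, 0.00167 and 0.965 for CYP1A1, and 0.00776 and 0.899 for CYP1B1 in siTAZ against Control. DESeq2 with the methods' settings called 400 genes in siYAP and 802 in siTAZ against siControl, where edgeR called 176 and 383. AHRR, IL4I1, AKR1B10 and CYP39A1 have few counts, which limits their precision.

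The values that changed sign are given by comparison, with the range over single left-out libraries where one of these turned the sign. In siYAP+TAZ against siControl CYP1A1 lay between -0.064 and 1.089 and NQO1 between -0.038 and 0.188. In siYAP+TAZ against siTAZ CYP1A1 lay between -0.275 and 0.859 and NQO1 between -0.104 and 0.125, and NQO1 was 0.001 with DESeq2, its size factors or limma-voom, 0.023 with library size as the only scaling, 0 with the run as a block and 0.096 without the run 21 to 25. In siTAZ against siControl CYP1A1 lay between -0.211 and 0.653, NQO1 between -0.032 and 0.202 and TIPARP between -0.03 and 0.044 (-0.007 without the run 26 to 30). In siYAP against siControl ARNT lay between -0.003 and 0.055 (-0.019 without the run 21 to 25), CYP1A1 between -0.544 and 0.34, and TIPARP between -0.038 and 0.051 (-0.017 without the run 26 to 30), and with Control as reference AHRR was -0.054 and NQO1 0.196. In siTAZ against Control AHRR lay between -0.174 and 0.273 (-0.354 without the run 21 to 25) and CYP1A1 between -0.137 and 0.755. In siYAP against Control AHRR lay between -0.24 and 0.187 (0.114 without the run 26 to 30) and CYP1A1 between -0.469 and 0.442 (0.045 without the run 16 to 20), and with library size as the only scaling they were 0.002 and 0.037. In siTAZ against siYAP AHR lay between -0.056 and 0.072 (-0.008 without the run 26 to 30), AHRR between -0.128 and 0.284 (-0.136 without the run 21 to 25), CYP1A1 between -0.111 and 0.756, and TIPARP between -0.038 and 0.026 (-0.018 without the run 21 to 25). There library size as the only scaling gave -0.016 for AHR and -0.026 for TIPARP, the filters on low counts gave -0.001 and -0.003 for TIPARP, and ARNT was -0.006 without the run 16 to 20 and -0.013 without the run 26 to 30. In siControl against Control AHR lay between -0.002 and 0.255, ARNT between -0.014 and 0.135 (-0.019 without the run 16 to 20) and CYP1A1 between -0.366 and 0.543. In the interaction AHRR lay between -0.284 and 0.412 (-0.344 without the run 26 to 30) and CYP1A1 between -0.187 and 0.981, and NQO1 was -0.046 without the run 16 to 20.

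With single libraries left out, the number of all genes called lay between 77 and 238 in siYAP against Control (276 with all), 120 and 1287 in siTAZ against Control (642), 0 and 417 in siTAZ against siYAP (121), 399 and 678 in siYAP+TAZ against siYAP (968), and 465 and 949 in siYAP+TAZ against siTAZ (1025).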
